A study of Rattus norvegicus with 30 samples.

Results

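The hypoxia response genes described here are 10 genes picked by name. They are the hypoxia-inducible factor (HIF) subunits *Hif1a* and *Epas1*, the oxygen-sensing prolyl hydroxylases *Egln1* and *Egln3*, the vascular targets *Vegfa* and *Adm*, the mitochondrial and metabolic targets *Bnip3* and *Pdk1*, and the targets *Ankrd37* and *Ndrg1*. Of these 10 genes, 9 had a row in the deposited table of 32545 genes, and all 9 passed the filter on low counts in every comparison. *Egln1* was not analysed here. HIF is a transcription factor of an alpha subunit, encoded by *Hif1a* or *Epas1*, and the shared partner ARNT. When oxygen is ample, prolyl hydroxylases of the EGLN family mark the alpha subunit for VHL and the proteasome, so HIF activity is set mostly at the protein level, and when oxygen falls the stabilized subunit raises genes of vessel growth, glycolysis and mitochondrial turnover. In the kidney, HIF-1α is known mainly from tubular epithelium and HIF-2α, the product of *Epas1*, from interstitial and endothelial cells, and the outer medulla works at a lower oxygen tension than the cortex.

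The mRNA was sequenced from the cortex (Cx) and the outer medulla (OM) of the right kidney of male Sprague-Dawley rats. All rats were of this outbred strain, with no genetic change. The LS groups ate 0.4% NaCl, and the HS14 and HS21 groups ate 4.0% NaCl for 14 and 21 d. Each of the 6 groups had 5 libraries, replicates 1 to 5 for LS, 6 to 10 for HS14 and 11 to 15 for HS21, which makes 30 libraries from pieces of whole tissue. The age of these rats was not given in the sources used here, nor whether equal numbers in Cx and OM stand for the same rat. The question was how the genes of the hypoxia response differed between the diets, times and tissues.

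Read pairs counted on genes summed to between 5408126 and 21842843 per library, with a median of 15000262.5. The lowest total was that of OM HS14 replicate 10, and the next lowest was 12748841. The tissue labels were checked with marker genes. On LS, all 5 markers of the thick ascending limb were higher in OM than in Cx, and 7 of 8 proximal tubule markers and 5 of 5 podocyte markers were lower (edgeR, adjusted *P* under 0.05). Of all 14295 genes tested there, 21.3% were higher and 19.5% lower in OM. Several OM libraries and 1 Cx library stood apart. The 8 proximal tubule markers summed to 12113 CPM in OM LS replicate 2, where CPM is the count scaled to a common library size after TMM normalization, against a median of 4300.0 CPM for its group. In OM LS replicate 5 they summed to 558 CPM. The collecting duct markers summed to 2122 CPM in that library, where the group median was 945 CPM. OM HS14 replicate 10 had the fewest counts and lay at the end of the OM range for 6 of the genes described below. In Cx, HS14 replicate 10 stood apart from its group by its markers, with a proximal tubule sum of 13744 CPM, where the group median was 18407 CPM, and a thick ascending limb sum of 2922 CPM, where it was 1789 CPM. For several results that rest on these libraries, values without them are given too.

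HIF binds a short core with the letters ACGTG or GCGTG. Both forms were searched on both strands of the RefSeq promoters (build GRCr8, 250 bases before to 50 bases after the start), and 8 of the 9 genes (all but *Ndrg1*) had at least 1 such window, 9 windows in all because *Vegfa* has a pair of starts. ACGTG stood in 4 of the 9 windows, those of *Hif1a*, *Bnip3*, *Pdk1* and *Ankrd37*, against 19.3% of all 33469 promoters in the table. GCGTG stood in 3 of the 9, those of *Bnip3*, *Pdk1* and *Ankrd37*, against 29.7% of all promoters. The following stretches of 25 bases are shown because they carry these cores in genes whose mRNA is compared below. Each reads 5′ to 3′ on the strand of the gene, with the core, or its reverse complement CACGT, in capitals.
Bnip3: cacgcgccgcACGTGccacacgcgc
Hif1a: acagacgagcACGTGagctgggcag
Ankrd37, centred at -20: tccgggctacACGTGtcactgtttg
Ankrd37, centred at -2: ctgtttgggtACGTGaggccgctgc
Pdk1: ccacgtcccgCACGTagagcccggg
The *Bnip3* stretch (chr1:203155046-203155070, minus strand) is centred at position -96, counting the first base of the gene as 0, and that of *Hif1a* (chr6:98359660-98359684, plus strand) at position -226. The *Ankrd37* stretches (chr16:53001475-53001499 and chr16:53001493-53001517, plus strand) are the ones nearest to the start, and the *Pdk1* stretch (chr3:77113534-77113558, plus strand) at 32. In *Bnip3*, *Hif1a* and the *Ankrd37* stretch at -20 the core is part of the palindrome CACGTG, an E-box, and so counts on both strands. Further ACGTG cores, not shown, stood at -234 in *Ankrd37*, at -162 in *Hif1a* and, as CACGT, at 23 in *Pdk1*. These are matches of letters and not measured binding.

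In Cx after 21 d of HS, 6 of the 9 genes differed from LS, and they did not move one way. *Hif1a*, *Bnip3* and *Ndrg1* fell to between 0.688 and 0.858 of the LS level, while *Pdk1*, *Adm* and *Vegfa* rose to between 1.14 and 1.47 times that level. *Epas1*, *Egln3* and *Ankrd37* did not pass the test. In the same comparison 18.9% of 14299 tested genes were raised and 20.5% lowered, against 3 raised and 3 lowered of the 9. The median log2 ratio of the 9 genes was 0.10, beside 0.0046 over all tested genes. None of the 9 genes passed edgeR's test at HS14 in Cx or at either time in OM.

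**Figure D1:**
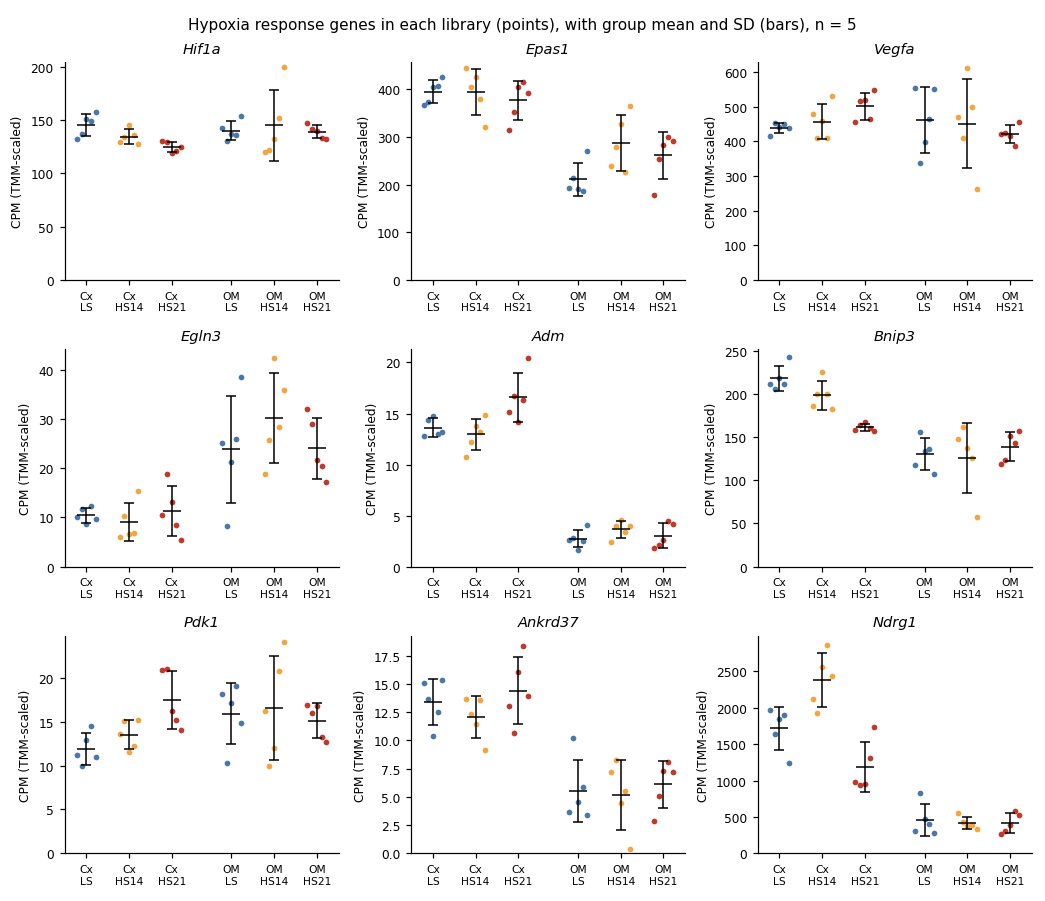
TMM-scaled CPM of the 9 genes in each library (points, coloured by diet), with the mean and SD of each group of 5 (bars), for Cx on the left and OM on the right of each panel. *Bnip3* in Cx lies between 157 and 167 CPM at HS21 and between 205 and 243 CPM on LS, and *Ndrg1* in Cx is highest at HS14.

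*Hif1a* encodes the oxygen-labile alpha subunit of HIF-1 (ENSRNOG00000008292, Rnor_6.0 chromosome 6, 96810907 to 96856052, plus strand). Its level in Cx LS was 132, 137, 151, 149 and 157 CPM in replicates 1 to 5. At HS21 it was 130.3, 129, 119, 121 and 125 CPM in replicates 11 to 15. All 5 HS21 libraries lay below the lowest LS library, by a small margin between replicate 11 and replicate 1. The means were 125 ± 4.76 (SD, n = 5) and 145 ± 10.3 CPM, and the log2 ratio was -0.22 ± 0.055 (SE; edgeR, adjusted *P* = 0.00769). At HS14 the level was between, 135 ± 7.002 CPM (log2 ratio to LS -0.12 ± 0.058, adjusted *P* = 0.315). With libraries scaled by total counts, which moved the median log2 ratio of all genes to 0.13, the *Hif1a* ratio at HS21 was -0.091 and was not called (adjusted *P* = 0.222).

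*Epas1* encodes HIF-2α (ENSRNOG00000021318, chromosome 6, 10306405 to 10387265). Its Cx levels were 366, 372, 405, 406 and 425 CPM on LS and 315, 353, 405, 416 and 393 CPM at HS21, and the groups overlapped (log2 ratio -0.072 ± 0.077, adjusted *P* = 0.489). In OM it was lower on LS, 192, 213, 191, 187 and 269.6 CPM, and stood at 239, 279.7, 327, 226 and 365 CPM at HS14. The OM HS14 to LS ratio of 0.45 ± 0.17 on the log2 scale did not pass over all genes (adjusted *P* = 0.713). *Epas1* was the only one of the 9 genes in that comparison with an unadjusted *P* under 0.05. At HS21 in OM the log2 ratio was 0.31 ± 0.15 (adjusted *P* = 0.492). The highest HS14 value was that of the shallow replicate 10, and without it the log2 ratio was 0.35.

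Among other HIF subunits in Cx at HS21, *Arnt*, the shared partner of both alpha subunits, was lowered (35.7 against 46.6 CPM, log2 ratio -0.39 ± 0.053, adjusted *P* = 0.000258). Its paralog *Arnt2* was raised (107 against 63.6 CPM, log2 ratio 0.75 ± 0.11, adjusted *P* = 0.00031). *Hif3a* was near the detection limit, at 0.511 ± 0.303 CPM on LS and 1.45 ± 1.06 CPM at HS21, and was not called. Thus 1 of the 5 HIF subunit genes was raised and 2 were lowered, *Hif1a* included. Over all tested genes 18.9% were raised and 20.5% lowered.

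*Egln3* encodes PHD3, a prolyl hydroxylase that acts on HIF-α and is itself a HIF target (ENSRNOG00000005053, chromosome 6, 75050329 to 75075795, minus strand). The Cx libraries held 10.02, 11.6, 8.56, 12.3 and 9.70 CPM on LS and 10.4, 18.8, 13.1, 8.51 and 5.37 CPM at HS21. The spread widened at HS21, with replicates 12 and 13 above and replicates 14 and 15 below every LS library, and the log2 ratio of 0.10 ± 0.27 did not pass (adjusted *P* = 0.786). Without replicate 12 the ratio was -0.15. Of the other 7 tested genes of oxygen sensing and HIF turnover, *Hif1an*, the asparaginyl hydroxylase that blocks coactivator binding, was lowered from 27.6 to 19.5 CPM (log2 ratio -0.51 ± 0.070, adjusted *P* = 0.000267). *Cul2*, the scaffold of the VHL ubiquitin ligase, was lowered too (log2 ratio -0.33 ± 0.076, adjusted *P* = 0.00529), but not with total-count scaling (-0.20, adjusted *P* = 0.0582). *Egln2*, another prolyl hydroxylase, was raised slightly (74.2 against 66.8 CPM, log2 ratio 0.15 ± 0.042, adjusted *P* = 0.0144), and *Vhl* had a log2 ratio of -0.030 ± 0.064 (adjusted *P* = 0.746).

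*Vegfa* encodes the main growth factor of vascular endothelium (ENSRNOG00000019598, chromosome 9, 17340341 to 17355681). In Cx it was 417, 455, 441, 449 and 438 CPM on LS and 457, 518, 520.1, 464 and 548 CPM at HS21. The lowest HS21 library, replicate 11, was almost level with the highest LS library, replicate 2, and their order turned when the 10 libraries compared were scaled alone. The means were 501 ± 39.4 and 440.0 ± 14.5 CPM (log2 ratio 0.19 ± 0.059, adjusted *P* = 0.0255). The call was lost without replicate 1, 3 or 5 of LS (adjusted *P* between 0.0513 and 0.0664) and in a fit of all 15 Cx libraries (adjusted *P* = 0.0561).

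*Adm* encodes adrenomedullin, a vasodilator peptide (ENSRNOG00000027030, chromosome 1, 175445088 to 175447259). Cx levels were 12.8, 14.4, 14.8, 13.01 and 13.2 CPM on LS and 15.2, 16.7, 14.2, 16.4 and 20.4 CPM at HS21. Replicate 13 of HS21 lay within the LS range and replicate 15 lay far above it. The means were 16.6 ± 2.37 and 13.6 ± 0.899 CPM, and the log2 ratio was 0.28 ± 0.10 (adjusted *P* = 0.0475). This call held when replicate 11 or 13 of HS21 was left out and was lost when any of the other 8 libraries was left out (adjusted *P* 0.0226 to 0.102 over the 10 fits), and also with no filter on low counts (adjusted *P* = 0.0777).

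The receptor side of these ligands was read from a list of 6 genes, of which 3 were raised and 1 lowered in Cx at HS21. In that comparison 18.9% of all tested genes were raised and 20.5% lowered. All 3 raised genes of the list code for the adrenomedullin receptor, which is formed by *Calcrl* and a RAMP protein. *Calcrl* rose from 23.8 to 29.6 CPM (log2 ratio 0.31 ± 0.080, adjusted *P* = 0.01), *Ramp2* from 3.88 to 6.04 CPM (0.64 ± 0.13, adjusted *P* = 0.003) and *Ramp3* from 25.2 to 45.7 CPM (0.86 ± 0.12, adjusted *P* = 0.000325). The lowered gene was *Nrp1*, a VEGF co-receptor (152 against 186 CPM, log2 ratio -0.29 ± 0.057, adjusted *P* = 0.00192). The VEGF receptor genes *Flt1* and *Kdr* had log2 ratios of 0.18 ± 0.079 and -0.071 ± 0.077 and were not called. *Ramp3* and *Nrp1* had also passed at HS14, at log2 ratios of 0.53 ± 0.097 (adjusted *P* = 0.0204) and -0.29 ± 0.066 (adjusted *P* = 0.0463). With 1 library left out these HS14 calls were lost in 4 of 10 fits for *Ramp3* (adjusted *P* up to 0.0668) and in 8 of 10 for *Nrp1* (up to 0.123), whose call was also lost with total-count scaling (adjusted *P* = 0.0621) and with no filter on low counts (adjusted *P* = 0.0584).

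Of the other vascular targets, *Apln*, the vasoactive peptide apelin, was lowered (3.01 ± 0.903 against 6.95 ± 1.88 CPM, log2 ratio -1.21 ± 0.25, adjusted *P* = 0.00291). *Epo*, a classic target of HIF-2α in renal interstitial cells, stood at 0.455 ± 0.124 CPM on LS and 0.484 ± 0.357 CPM at HS21, too low to be tested.

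*Bnip3* encodes a mitochondrial outer membrane protein of mitophagy (ENSRNOG00000017243, chromosome 1, 211248098 to 211265282, minus strand). In Cx it was 211, 205, 218, 211 and 243 CPM on LS, 186, 199.7, 225, 199 and 182 CPM at HS14 and 158, 164, 167, 161 and 157 CPM at HS21. The HS21 libraries lay within a narrow range below every LS and every HS14 library. The mean at HS21 was 161 ± 4.22 CPM against 218 ± 14.8 CPM on LS (log2 ratio -0.44 ± 0.051, adjusted *P* = 9.88e-05), and against HS14 the log2 ratio was -0.29 ± 0.060 (adjusted *P* = 0.012). The call against LS held in all 10 fits with 1 library left out, as it did for *Hif1a*. These were the 2 of the 9 genes with no overlap between HS21 and LS, where 26.7% of all tested genes had none. In the list of mitochondrial targets 2 of 7 genes were lowered and 0 raised, where 20.5% and 18.9% of all tested genes were. The other lowered gene of the list was *Lonp1*, a mitochondrial protease (log2 ratio -0.20). The *Bnip3* paralog *Bnip3l* had a log2 ratio of -0.097 ± 0.040 (adjusted *P* = 0.0731).

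*Pdk1* encodes a pyruvate dehydrogenase kinase, which keeps pyruvate from entering the tricarboxylic acid cycle (ENSRNOG00000001517, chromosome 3, 58530870 to 58558027). In Cx it was 11.2, 9.96, 12.95, 14.5 and 10.98 CPM on LS, 13.6, 15.1, 11.5, 12.2 and 15.2 CPM at HS14 and 20.9, 21.0, 16.2, 15.2 and 14.0 CPM at HS21. Only replicate 15 of HS21 fell within the LS range. The mean at HS21 was 17.5 ± 3.28 CPM against 11.9 ± 1.80 CPM on LS (log2 ratio 0.55 ± 0.14, adjusted *P* = 0.00934), and the call held in all 10 fits with 1 library left out. Its paralogs did not follow. *Pdk2* was lowered from 416 to 267 CPM (log2 ratio -0.65 ± 0.076, adjusted *P* = 0.000105), and *Pdk3* and *Pdk4* were not called.

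Of 16 tested glycolytic HIF targets 7 were raised and 4 lowered in Cx at HS21, where 18.9% and 20.5% of all tested genes were. The raised genes included *Pfkfb3*, which makes the activator of phosphofructokinase (59.0 against 27.7 CPM, log2 ratio 1.09 ± 0.16, adjusted *P* = 0.000431), and the hexokinase *Hk2* (16.1 against 8.24 CPM, log2 ratio 0.96 ± 0.19, adjusted *P* = 0.00209). The glucose transporter *Slc2a1* was raised (36.8 against 25.4 CPM, log2 ratio 0.53 ± 0.11, adjusted *P* = 0.00279) and lactate dehydrogenase *Ldha* rose by less (192 against 162 CPM, log2 ratio 0.24 ± 0.058, adjusted *P* = 0.00679). The lowered genes were *Eno1*, *Pgk1*, *Gapdh* and *Pgam1*. Enolase *Eno1* was lowered from 1796 to 1293 CPM (log2 ratio -0.48 ± 0.083, adjusted *P* = 0.00106) and *Pgk1* from 611 to 538 CPM (log2 ratio -0.19 ± 0.048, adjusted *P* = 0.00958), and with total-count scaling the *Pgk1* ratio was -0.057 and was not called (adjusted *P* = 0.337). *Hk2* had passed already at HS14 (log2 ratio 0.62 ± 0.14, adjusted *P* = 0.0433), a call lost in 7 of 10 fits with 1 library left out (adjusted *P* up to 0.109) and in the fit of all 15 Cx libraries (adjusted *P* = 0.0802).

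*Ndrg1* encodes a cytoplasmic protein induced by hypoxia and other stresses (ENSRNOG00000007393, chromosome 7, 107734299 to 107775706, minus strand) and was the most abundant of the 9 genes in Cx per length. It was 1968, 1636, 1842, 1895 and 1239 CPM on LS, 2123, 1923, 2565, 2859 and 2439.7 CPM at HS14, and 976, 941, 954, 1305 and 1739 CPM at HS21. Thus 4 of the 5 HS14 libraries were above, and 3 of the 5 HS21 libraries below, every LS library. The log2 ratio to LS was 0.47 ± 0.13 at HS14, which edgeR did not call (adjusted *P* = 0.0902; DESeq2 adjusted *P* = 0.0141), and -0.54 ± 0.18 at HS21 (adjusted *P* = 0.0345). The HS21 call held without replicate 5 of LS or replicate 15 of HS21 and was lost without any of the other 8 libraries (adjusted *P* 0.00351 to 0.0914 over the 10 fits). It was also lost with total-count scaling (log2 ratio -0.41, adjusted *P* = 0.0971).

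Between HS14 and HS21 in Cx, *Ndrg1* fell by 1.005 on the log2 scale (SE 0.18, adjusted *P* = 0.00916), with every HS21 library below every HS14 library. Together with *Bnip3*, 2 of the 9 genes were lowered and 0 raised in this comparison, where 9.69% of 14395 tested genes were lowered, 6.50% raised and 9.96% without overlap. DESeq2 also called 2 genes lowered, and it called 2 raised, *Adm* (log2 ratio 0.36, adjusted *P* = 0.0344) and *Pdk1* (0.38, adjusted *P* = 0.0473), which edgeR put at adjusted *P* = 0.0628 and 0.0816. With edgeR *Adm* passed without Cx HS14 replicate 10 (0.40, adjusted *P* = 0.036), where 3524 genes were called in place of 2330. Leaving out each library in turn, *Ndrg1* ranged from -1.19 to -0.93 and *Bnip3* from -0.33 to -0.25, and both passed in all 10 fits. Among the paralogs of *Ndrg1* in Cx at HS21 against LS, *Ndrg2* (58.6 against 34.3 CPM, log2 ratio 0.77 ± 0.11, adjusted *P* = 0.000364) and *Ndrg4* (16.4 against 9.95 CPM, log2 ratio 0.72 ± 0.14, adjusted *P* = 0.0018) were raised.

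*Ankrd37* encodes an ankyrin repeat protein and is a HIF-1 target (ENSRNOG00000031335, chromosome 16, 49462889 to 49465888). It stood in Cx at 15.1, 13.6, 10.4, 12.5 and 15.4 CPM on LS and 13.03, 10.6, 16.03, 18.4 and 13.9 CPM at HS21. The groups overlapped (log2 ratio 0.10 ± 0.15, adjusted *P* = 0.63). The list of other HIF targets holds *Ankrd37* and *Ndrg1*. Of its 19 tested genes 7 were raised and 4 lowered in Cx at HS21, where 18.9% and 20.5% of all tested genes were. The raised genes included *Ddit4*, an inhibitor of mTORC1 (50.3 against 20.1 CPM, log2 ratio 1.33 ± 0.39, adjusted *P* = 0.0175), ceruloplasmin *Cp* (125 against 52.9 CPM, log2 ratio 1.24 ± 0.28, adjusted *P* = 0.0042) and heme oxygenase *Hmox1* (12.98 against 5.81 CPM, log2 ratio 1.16 ± 0.40, adjusted *P* = 0.0398). The *Hmox1* call was lost in 7 of 10 fits with 1 library left out (adjusted *P* up to 0.0862), and without replicate 15 of HS21 its ratio was 0.58 and that of *Ddit4* 0.82, of which *Ddit4* still passed. *Lox*, the collagen crosslinking enzyme, was raised from 3.16 to 6.41 CPM (log2 ratio 1.01 ± 0.28, adjusted *P* = 0.0132). The lowered genes included the lipoprotein receptor *Vldlr* (33.9 against 54.0 CPM, log2 ratio -0.67 ± 0.097, adjusted *P* = 0.000321) and the transcriptional repressor *Bhlhe40* (105 against 146 CPM, log2 ratio -0.48 ± 0.098, adjusted *P* = 0.00256). *Car9*, whose product is a widely used marker of hypoxia in tumours, stood at 0.153 ± 0.179 CPM on LS and 0.401 ± 0.134 CPM at HS21 and was too low to be tested.

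**Figure D2:**
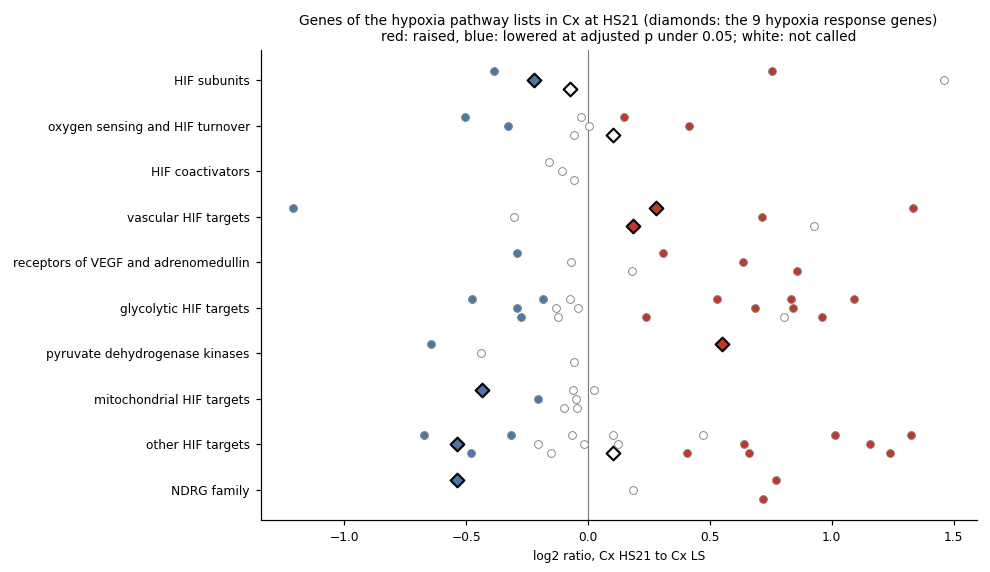
Log2 ratio of Cx HS21 to Cx LS for every tested gene of the 10 pathway lists (rows), with the 9 hypoxia response genes as diamonds and *Ndrg1* in both lists that hold it. Red points were raised and blue points lowered at an adjusted *P* under 0.05, and white points were not called, with both colours present in 8 of the 10 lists.

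Over all pathway lists, with the 9 genes left out, 24 of 69 tested genes were raised and 14 lowered in Cx at HS21. In that comparison 18.9% of all tested genes were raised and 20.5% lowered. The median log2 ratio was -0.017 for the 69 genes, beside 0.0046 over all genes. At HS14 in Cx 3 of 67 pathway genes were raised, *Stc1*, *Hk2* and *Ramp3*, and 1 was lowered, *Nrp1*, where 2.33% of all tested genes were called. *Stc1* encodes the hormone stanniocalcin 1 and had the largest of these ratios (58.2 ± 22.2 against 21.3 ± 4.27 CPM, log2 ratio 1.44 ± 0.28, adjusted *P* = 0.027), but its call was lost in 7 of 10 fits with 1 library left out (adjusted *P* up to 0.0848).

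The composition of the Cx libraries moved with the same diet groups. All 8 proximal tubule markers were lowered in Cx at HS21, and their summed level was 10856 to 14461 CPM against 18878 to 20865 CPM on LS. All 10 leukocyte markers were raised, with sums of 1290.0 to 3516 CPM against 898 to 1053 CPM. Podocyte markers were raised in 4 of 5, with sums of 719.8 to 851 CPM against 589 to 664 CPM, and collecting duct markers in 4 of 5 (496 to 897 against 352 to 439 CPM). Thick ascending limb markers were raised in 3 of 5 with 1 lowered (2338 to 3197 against 1468 to 2061 CPM). Endothelial markers were raised in 3 of 7 (449 to 540.3 against 429 to 449.8 CPM) and fibroblast and pericyte markers in 1 of 5 (314 to 527 against 273 to 390 CPM), and the sums of both these lists overlapped with LS. In this comparison 18.9% of all tested genes were raised and 20.5% lowered. No marker of these lists was at 0 in any Cx library. A list of 6 immediate early genes, *Fos* and *Jun* among them, was summed too. In Cx it gave 178 to 259 CPM at HS21 against 237 to 322 CPM on LS, with 1 gene lowered and 0 raised. In whole tissue, fewer cells of a type and less RNA per cell cannot be told apart, and the part of these shifts in the differences of *Hif1a*, *Bnip3*, *Ndrg1*, *Vegfa*, *Adm* and *Pdk1* was not tested.

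**Figure D3:**
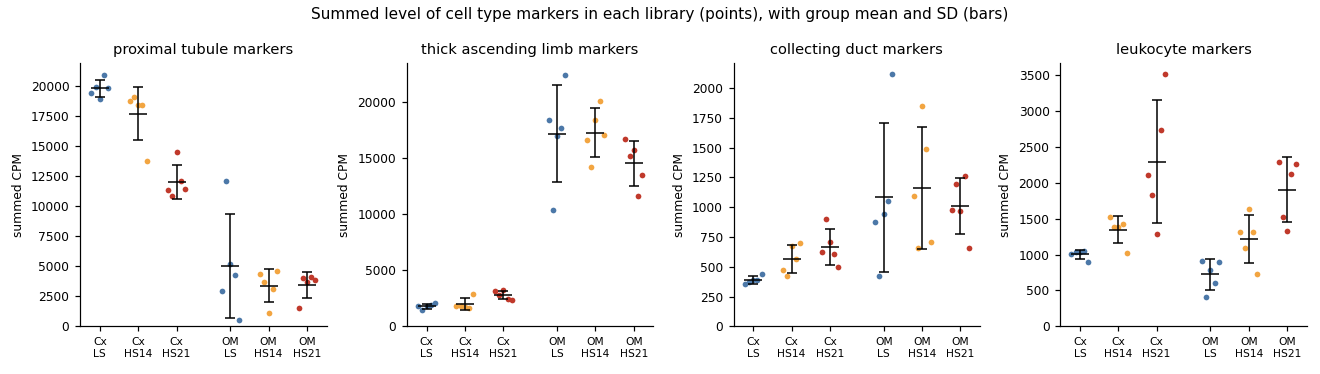
Summed CPM of the markers of 4 cell types in each library (points), with the mean and SD of each group of 5 (bars). In Cx the proximal tubule sum at HS21 lies below every LS library and the leukocyte sum above, and in OM replicate 2 of LS has the highest proximal tubule sum, 12113 CPM.

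At HS14 in Cx 0 of the 9 genes passed edgeR's test, where 2.33% of 14181 genes did. *Ndrg1* was the only one with an unadjusted *P* under 0.05 and the 1 gene that DESeq2 called. The log2 ratios of the other 8 lay between -0.22 for *Egln3* and 0.18 for *Pdk1*. Without Cx HS14 replicate 10 the *Egln3* ratio was -0.50 and was still not called.

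**Figure D4:**
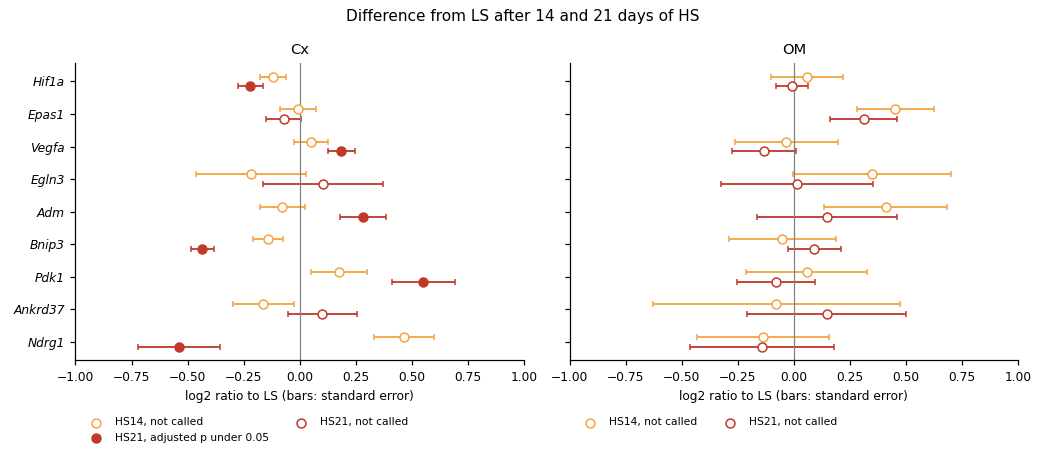
Log2 ratio to LS of the 9 genes at HS14 (orange) and HS21 (red) in Cx (left) and OM (right), with the standard error. Filled points passed at an adjusted *P* under 0.05, which occurs only in Cx at HS21, for 3 genes to the left and 3 to the right of 0.

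In OM 0 of the 9 genes passed against LS at either time by edgeR or DESeq2. The background was low too, 0.00694% of 14417 genes at HS14 and 0.769% of 14555 genes at HS21. An unadjusted *P* under 0.05 was reached by 1 gene at HS14, *Epas1*, and by 0 at HS21. The log2 ratios lay between -0.14 for *Ndrg1* and 0.45 for *Epas1* at HS14 and between -0.14 for *Ndrg1* and 0.31 for *Epas1* at HS21, with *Adm* at 0.41 ± 0.27 and 0.15 ± 0.31 and *Pdk1* at 0.058 ± 0.27 and -0.079 ± 0.18. The errors in OM were wider than in Cx for most genes, as for *Vegfa*, whose SE was 0.14 in OM and 0.059 in Cx at HS21. The 6 immediate early genes also varied in OM. They summed to 239 to 1141 CPM on LS, 170 to 1624 CPM at HS14 and 180 to 263 CPM at HS21. Of these genes 0 were called against LS at either time, and their part in the differences of the 9 genes was not tested. Between HS14 and HS21 in OM 0 of the 9 genes passed by edgeR or DESeq2, 0 had an unadjusted *P* under 0.05, and 0.00% of 14499 genes passed by edgeR, of which 337 were higher and 210 lower at an unadjusted *P* under 0.05.

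*Hif1a* in OM was 142, 130.03, 137, 136 and 154 CPM on LS and 147, 142, 139.7, 133 and 132 CPM at HS21, with a log2 ratio of -0.0099 ± 0.072. *Bnip3* in OM was 118, 156, 134, 136 and 107 CPM on LS and 119, 124, 151, 143 and 157 CPM at HS21, with a log2 ratio of 0.090 ± 0.12. The HS21 and LS libraries overlapped for both genes. *Ndrg1* in OM was 301, 832, 467, 401 and 283 CPM on LS and 271, 307, 384, 583 and 529 CPM at HS21. The highest of these was OM LS replicate 2, the library with the most proximal tubule transcripts, and without it the log2 ratio of HS21 to LS turned from -0.14 to 0.18.

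Of the 69 other pathway genes tested in OM at HS21, 1 was raised and 0 lowered. In that comparison 0.639% of 14555 tested genes were raised and 0.131% lowered. The raised pathway gene was *Stc2*, which encodes stanniocalcin 2, at 29.9 ± 24.7 CPM against 1.97 ± 1.34 CPM on LS (log2 ratio 3.91 ± 0.67, adjusted *P* = 0.0342). The lowest HS21 library (7.85 CPM) was above the highest LS library (4.33 CPM), but the call was lost in 8 of 10 fits with 1 library left out. In the same comparison 6 of 10 leukocyte markers were raised, with sums of 1323 to 2295 CPM against 406 to 911 CPM on LS, and the part of this in the *Stc2* difference was not tested. At HS14 in OM 0 of 69 passed by edgeR and 3 by DESeq2, where edgeR called 0.00694% of 14417 tested genes and DESeq2 called 109 genes.

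A fit of both tissues asked if the HS21 difference was unequal in Cx and OM, by its interaction term, for which 0.665% of 15194 genes passed. None of the 9 genes passed by edgeR, 3 had an unadjusted *P* under 0.05 and DESeq2 called 1. The gene nearest to the threshold was *Bnip3*, at -0.44 in Cx and 0.090 in OM, a difference of 0.52 ± 0.13 on the log2 scale (adjusted *P* = 0.0738; DESeq2 adjusted *P* = 0.00665). Without OM LS replicate 2 *Bnip3* passed (0.62, adjusted *P* = 0.0067), as did *Pdk1* in the other direction (-0.73, adjusted *P* = 0.0289, against -0.63 and 0.193 with it), and without OM HS21 replicate 11 *Bnip3* passed as well (0.58, adjusted *P* = 0.0391). With total-count scaling *Bnip3* passed too (0.43, adjusted *P* = 0.0421). *Hif1a* had an interaction of 0.21 ± 0.087 (adjusted *P* = 0.263). For the other members, too, a call in Cx and none in OM does not show a difference between the tissues.

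On LS, 6 of the 9 genes differed between the tissues, 5 of them lower in OM with no overlap. In the same comparison 19.5% of 14295 genes were lower and 21.3% higher in OM, and 29.0% had no overlap. The median log2 ratio of OM to Cx was -0.75 for the 9 genes and 0.029 over all genes. Scaling by total counts moved the median over all genes to 0.27 and kept the direction of all 9 genes but *Hif1a*, which turned to 0.18 and was not called.

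*Adm* differed most. It was 2.65, 2.82, 1.65, 2.54 and 4.06 CPM in OM against 12.8 to 14.8 CPM in Cx, a log2 ratio of -2.32 ± 0.20 (adjusted *P* = 1.7e-05). *Ndrg1* was next, at 457 ± 223 CPM in OM and 1716 ± 294 CPM in Cx (log2 ratio -1.91 ± 0.30, adjusted *P* = 6e-04). Without OM LS replicate 2 its ratio was -2.26. *Ankrd37* was 3.69, 10.2, 4.52, 5.85 and 3.39 CPM in OM against 10.4 to 15.4 CPM in Cx (log2 ratio -1.29 ± 0.29, adjusted *P* = 0.00519), and here too the highest OM value, just under the lowest in Cx, was that of replicate 2 (log2 ratio -1.64 without it). *Epas1* was lower in OM by a log2 ratio of -0.91 ± 0.11 (211 ± 34.5 against 395 ± 24.8 CPM, adjusted *P* = 0.000127) and *Bnip3* by -0.75 ± 0.11 (130.1 ± 18.7 against 218 ± 14.8 CPM, adjusted *P* = 0.000368). Without OM LS replicate 5 the log2 ratio was -2.50 for *Adm*, -1.01 for *Epas1*, -1.78 for *Ndrg1*, -1.16 for *Ankrd37* and -0.68 for *Bnip3*. All of these were still called.

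*Egln3* was the 1 gene higher in OM, at 25.1, 8.21, 21.2, 25.9 and 38.5 CPM against 8.56 to 12.3 CPM in Cx (log2 ratio 1.18 ± 0.32, adjusted *P* = 0.0129). The only OM library below the highest Cx library was again replicate 2, and without it the log2 ratio was 1.38. Without OM LS replicate 5, the highest OM library, the log2 ratio was 0.95 and still passed. With the replicate number as a block *Egln3* did not pass (1.07, adjusted *P* = 0.0518). *Hif1a* (139.9 ± 8.94 against 145 ± 10.3 CPM) and *Vegfa* (462 ± 94.8 against 440.0 ± 14.5 CPM) differed by less than the spread of the libraries, with log2 ratios of -0.062 ± 0.071 and 0.061 ± 0.13. *Pdk1* was 15.9 ± 3.50 CPM in OM and 11.9 ± 1.80 CPM in Cx and did not pass (log2 ratio 0.42 ± 0.17, adjusted *P* = 0.0717), though it did without OM LS replicate 2 (0.52, adjusted *P* = 0.00626), with total-count scaling (0.67, adjusted *P* = 0.0182) and with the block (0.40, adjusted *P* = 0.0389).

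**Figure D5:**
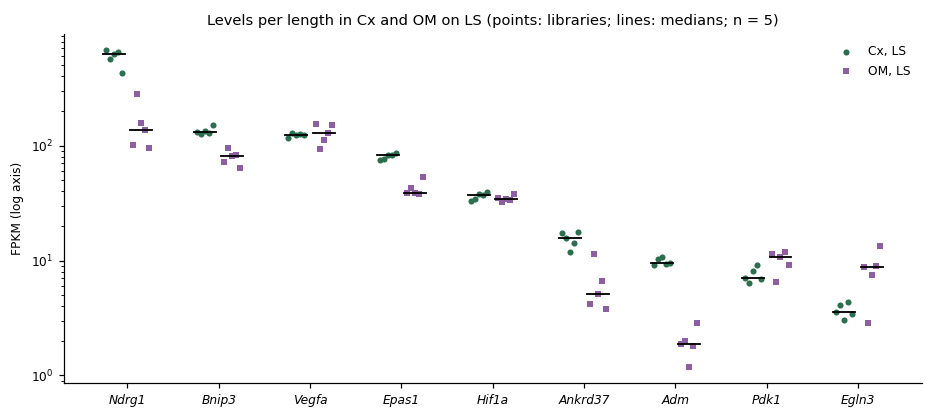
Deposited FPKM (log axis) of the 9 genes in each LS library of Cx (circles) and OM (squares), with the median of each group (lines), ordered by the Cx mean. *Ndrg1* leads in Cx at 425 to 675 FPKM, and *Adm* is the lowest gene in OM at 1.18 to 2.85 FPKM.

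Levels of different genes were compared only per length, by the authors' FPKM. In Cx on LS the order was *Ndrg1* (589 ± 100.4 FPKM, SD, n = 5), *Bnip3* (134 ± 9.10), *Vegfa* (124 ± 4.15), *Epas1* (80.5 ± 4.99), *Hif1a* (36.4 ± 2.57), *Ankrd37* (15.3 ± 2.32), *Adm* (9.80 ± 0.657), *Pdk1* (7.52 ± 1.12) and *Egln3* (3.70 ± 0.531). The ranges of *Bnip3* and *Vegfa* overlapped at 127 to 128 FPKM, and the other neighbours did not overlap. In OM on LS the order was *Ndrg1* (155 ± 75.8 FPKM), *Vegfa* (128 ± 25.8), *Bnip3* (79.0 ± 11.6), *Epas1* (42.2 ± 6.70), *Hif1a* (34.5 ± 2.04), *Pdk1* (9.91 ± 2.18), *Egln3* (8.28 ± 3.75), *Ankrd37* (6.23 ± 3.14) and *Adm* (1.94 ± 0.601). There *Ndrg1* and *Vegfa* overlapped, as did *Vegfa* and *Bnip3*, *Pdk1* and *Egln3*, and *Egln3* and *Ankrd37*. The FPKM of *Epas1* was above that of *Hif1a* in every Cx library, and in OM the lowest *Epas1* value equalled the highest *Hif1a* value at 37.6 FPKM.

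On LS, 21.3% of all tested genes were higher and 19.5% lower in OM than in Cx. Of the wider pathway, 20 of 68 tested genes were higher and 17 lower in OM. Among the higher ones were glycolytic genes, *Slc2a1* (112 against 25.4 CPM, log2 ratio 2.13 ± 0.16, adjusted *P* = 8.2e-06), *Pfkp* (2.23 ± 0.32, adjusted *P* = 0.000373) and *Hk1* (1.94 ± 0.20, adjusted *P* = 4.44e-05), and the *Ndrg1* paralogs *Ndrg4* (132.6 against 9.95 CPM, log2 ratio 3.72 ± 0.53, adjusted *P* = 0.000366) and *Ndrg2* (1.53 ± 0.29, adjusted *P* = 0.00187). *Hif3a*, whose product can restrain the other alpha subunits, was 3.60 ± 2.34 CPM in OM and 0.511 ± 0.303 CPM in Cx (log2 ratio 2.76 ± 0.63, adjusted *P* = 0.00573). Its levels were low, and the lowest OM library (0.677 CPM) was below the highest Cx library (0.963 CPM). Other higher genes were *Plod2*, a collagen lysyl hydroxylase (2.07 ± 0.35, adjusted *P* = 0.000989), and *Cox4i2*, a cytochrome oxidase subunit (1.81 ± 0.47, adjusted *P* = 0.0116). *Cox4i2* was low as well, at 3.21 CPM in OM and 0.911 CPM in Cx, and its groups overlapped.

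Among the lower genes were *Kdr*, the main VEGF receptor (59.1 against 170.3 CPM, log2 ratio -1.53 ± 0.088, adjusted *P* = 1.89e-06), *Pdk2* (-1.54 ± 0.14, adjusted *P* = 2.43e-05), *Vldlr* (-1.44 ± 0.16, adjusted *P* = 7.04e-05), *Car12*, a membrane carbonic anhydrase (-1.24 ± 0.11, adjusted *P* = 2.54e-05), and *Hmox1* (-0.96 ± 0.19, adjusted *P* = 0.00215). The glycolytic genes *Eno1* (-0.96 ± 0.17, adjusted *P* = 0.00117) and *Gapdh* (-0.80 ± 0.16, adjusted *P* = 0.00234) and the adrenomedullin receptor component *Ramp3* (-0.83 ± 0.13, adjusted *P* = 0.000609) were lower too. Of the 6 receptor genes 4 were lower in OM and 0 higher, where 19.5% and 21.3% of all tested genes were. The tissues differ in nephron segments, as the markers above show, and the part of this in the differences between OM and Cx cannot be told apart from a difference within 1 cell type.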

How the data were processed

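Libraries of poly(A)-selected, non-directional mRNA were read on the whole tissue. According to the study's methods and the submitters' processing notes, the authors aligned reads to Ensembl Rnor_6.0 with HISAT2 2.0.5 and counted them per gene with featureCounts 1.5.0-p3. StringTie 1.3.3b is listed too. The counts were deposited as whole numbers, not normalized. The deposited FPKM are the authors' values per gene length and library size and were used only to compare levels between genes. The gene length is the authors' too. Columns of the authors' DESeq2 comparisons (group means, log2 fold changes, p-values and adjusted values) were not used.

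Counts were tested with edgeR 4.0.16 in R 4.3.3: filterByExpr with the group, TMM, glmQLFit and glmQLFTest on the 10 libraries compared (20 for the interaction), and Benjamini-Hochberg adjustment over all genes tested, with a call at 0.05 and no limit on the fold. The log2 ratio is of the first-named group to the second, with its SE. Printed CPM are TMM-scaled over all 30 libraries. Alternatives were DESeq2 1.42.0, other scalings, no filter, all 15 libraries of the tissue, the replicate number as a block, and each library left out. Within groups, the 60 pairs of libraries differed by at least 6.93 times counting noise, so none was counted as a duplicate. Depth limits precision most for genes near 1 CPM, and the errors given include differences between rats and counting error.

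The 10 genes and the pathway and marker lists were chosen with earlier results of these data known. Of 136 listed symbols 132 had 1 row, 3 of them under an older symbol. *Egln1* and *Ier2* had none, *Pkm* and *Pfkfb4* had 2 each, and these 4 were not analysed here. The 9 genes with a row were tested in every comparison, and those not printed singly are given by counts or ranges. Other pathway genes are named if among the 8 raised or 8 lowered with the largest ratio in a comparison with LS or of OM with Cx, at an adjusted *P* under 0.05 and a mean of 1 CPM, or from a short list given for Cx at HS21 (*Arnt*, *Egln2*, *Vhl*, *Hif1an*, *Slc2a1*, *Pgk1*, *Ldha*, *Epo*, *Car9*). A gene that this rule names is not reported here and stays in the counts of its list. Genes outside this rule (*Arnt2*, *Hif3a* in Cx, *Calcrl*, *Ramp2*, *Flt1*, *Kdr* and *Nrp1* in Cx, *Bnip3l*, *Lonp1*, *Gapdh* and *Pgam1* in Cx, *Pdk3*, *Pdk4*, *Ndrg2* and *Ndrg4* in Cx) were added after their values were seen. Promoter sequences are RefSeq's (GRCr8) and were matched by symbol.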

Additional observations from a re-analysis of the deposited data

Results flagged for a closer look

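The highest and lowest library of each of the 54 groups (9 genes in 6 groups of 5 libraries) was compared with the rest of its group by Dixon's ratio of the gap to the range, on log2 CPM. The ratio was above the critical value of 0.71 in 2 of the 54 groups, where chance flags about 1 in 20. Both were the lowest value of OM HS14, in replicate 10. *Bnip3* was 57.9 CPM there against 125 to 161 CPM in the other 4 libraries, with a ratio of 0.753. *Ankrd37* was 0.357 CPM against 4.44 to 8.30 CPM, with a ratio of 0.784. This library had the fewest counts of all 30, 5408126, of which 324 were on *Bnip3* and 2 on *Ankrd37*. The cause of these low values was not tested. By edgeR on all 20 libraries no interaction of tissue and diet passed for the 9 genes at HS21, and the settings under which *Bnip3* or *Pdk1* passed are given with that comparison above.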

How the results depend on the processing

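Of the calls in Cx at HS21, those of *Hif1a*, *Bnip3* and *Pdk1* held with each library left out in turn, and those of *Vegfa*, *Adm* and *Ndrg1* depended on single libraries as given above. With each library left out, the number of the 9 genes raised in Cx at HS21 was 1 to 3. It was 0 to 1 for Cx HS21 against HS14, 1 to 2 for OM against Cx on LS, and 0 to 1 raised and 0 to 1 lowered for the interaction. Over all genes, 85 to 471 were called in Cx at HS14 (fewest without replicate 4 of LS), 0 to 4 in OM at HS14, 9 to 175 in OM at HS21 (fewest without replicate 3 of LS), 1029 to 3524 for Cx HS21 against HS14, 0 to 1 for OM HS21 against HS14 and 42 to 1275 for the interaction (most without OM LS replicate 2). Other pathway genes raised were 0 to 4 and lowered 0 to 1 in Cx at HS14, and raised 0 to 2 in OM at HS21. Uncalled ratios near 0 changed sign. In Cx at HS14 *Epas1* ranged from -0.053 to 0.054 and *Vegfa* from -0.015 to 0.088, and in Cx at HS21 *Egln3* ranged from -0.15 to 0.29 and *Vhl* from -0.073 to 0.021. In OM at HS14 *Hif1a* ranged from -0.091 to 0.13, *Vegfa* from -0.17 to 0.11, *Bnip3* from -0.15 to 0.13, *Pdk1* from -0.12 to 0.20, *Ankrd37* from -0.29 to 0.25 and *Ndrg1* from -0.27 to 0.19. In OM at HS21 *Hif1a* ranged from -0.038 to 0.020, *Egln3* from -0.20 to 0.24, *Adm* from -0.022 to 0.32, *Pdk1* from -0.20 to 0.0025 and *Ndrg1* from -0.29 to 0.18. For OM HS21 against HS14 *Hif1a* ranged from -0.14 to 0.087, *Vegfa* from -0.23 to 0.034, *Bnip3* from -0.033 to 0.25, *Pdk1* from -0.28 to 0.046, *Ankrd37* from -0.050 to 0.45 and *Ndrg1* from -0.15 to 0.11. *Vegfa* in OM against Cx ranged from -0.010 to 0.14, and the interactions of *Egln3*, *Adm* and *Ankrd37* from -0.29 to 0.19, -0.31 to 0.054 and -0.081 to 0.40.

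DESeq2's Wald test called 1 of the 9 genes raised in Cx at HS14, 2 raised for Cx HS21 against HS14 and 1 raised for the interaction. Over all genes it called 921 in Cx at HS14, 109 in OM at HS14, 701 in OM at HS21, 27 for OM HS21 against HS14 and 556 for the interaction. Of other pathway genes it called 10 raised and 2 lowered in Cx at HS14, 3 raised in OM at HS14 and 3 in OM at HS21. Scaling by total counts left 1 of the 9 genes lowered in Cx at HS21, raised 2 for Cx HS21 against HS14, 2 for OM against Cx and 1 for the interaction, and called 0 genes in OM at HS14 and 44 in OM at HS21. It gave 4401 raised and 1653 lowered genes in Cx at HS21, against 2702 and 2936 with TMM, 2084 and 644 against 935 and 1395 for Cx HS21 against HS14, 5546 and 1842 against 3051 and 2794 for OM against Cx, and 57 and 54 against 68 and 33 for the interaction. Of other pathway genes it called 0 lowered in Cx at HS14 and 31 higher in OM than Cx. It turned *Epas1* to 0.0044, 0.057 and 0.053 in Cx HS14, Cx HS21 and Cx HS21 against HS14, *Hif1a* to 0.0087 in OM at HS21, 0.015 for Cx HS21 against HS14 and 0.18 for OM against Cx, *Ndrg1* to 0.035 for OM HS21 against HS14, *Vhl* to 0.10 in Cx at HS21 and the *Ankrd37* interaction to -0.030. With no filter on low counts, 0 genes were called in OM at HS14, 58 for the interaction and 0 other pathway genes lowered in Cx at HS14, and *Ndrg1* turned to 0.0073 for OM HS21 against HS14. With all 15 libraries of a tissue, 2 genes were called in OM at HS14, 199 in OM at HS21, 2 other pathway genes were raised in OM at HS21 and 1 of the 9 genes for Cx HS21 against HS14. With OM LS replicate 2 and OM HS14 replicate 10 both left out, an alternative chosen after seeing the data, 0 of the 9 genes and 6 of all genes were called in OM at HS14, and *Hif1a* turned to -0.12, *Vegfa* to 0.013, *Bnip3* to 0.20, *Pdk1* to -0.24, *Ankrd37* to 0.54 and *Ndrg1* to 0.26, none of them called. The cause of these changes was not tested.

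Same-numbered Cx and OM libraries correlated in their deviations from the group means by -0.071 to 0.44, over 0.1 in 10 of 15 numbers. Within their diet group, 13 of 15 libraries correlated best with their own number, and at HS21 5 of 5 did, at 0.24 to 0.44. No source used here ties a number to a rat. The main fits therefore did not take the numbers as pairs, and the fit with the number as a block is the alternative if they are. With the replicate number as a block, 5 of the 9 genes were lower and 1 higher in OM than Cx on LS, as without it, but the higher one was *Pdk1* (0.40, adjusted *P* = 0.0389) and *Egln3* stood at 1.07 (adjusted *P* = 0.0518). The block called 5011 genes in that comparison and 94 for the interaction, and turned the *Egln3* interaction to 0.092.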
